A study of Mus musculus with 2 samples.

Results

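The cells described here are dTAG13-treated cells of mouse embryoid bodies in which the mRNA of Neurod1 (ENSMUSG00000034701) was counted at least 2 times. They number 877 of 11588 kept dTAG13 cells, or 7.57% (exact 95% interval 7.09% to 8.06%), and of 29466 kept cells in the series. Kept cells have at least 500 genes and at most 10% of their unique molecular identifiers (UMIs, counts of distinct tagged transcripts) from mitochondrial genes. The members, called Neurod1 cells below, were chosen by their Neurod1 count alone, which is therefore no result, and were set against the 8810 kept dTAG13 cells with 0 Neurod1 UMIs, called zero-UMI cells. The 1901 cells with exactly 1 UMI belong to neither set and are shown as a step between them.

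Embryoid bodies are clusters in which embryonic stem cells begin to differentiate. Those sampled here derive from the J1 line of male mouse embryonic stem cells and received either dTAG13 or DMSO, its solvent, for 2 days before trypsin dissociation and droplet sequencing (10x Chromium 3′ libraries). dTAG13 is a small molecule that recruits proteins carrying the FKBP12(F36V) tag to a ubiquitin ligase and so causes their degradation. The labels do not say which protein is tagged. The series title names Tex10, and no tag or edited allele is described for either group. Each group is 1 library, so cells are not replicates, no test was made, and every interval below is a 95% interval that covers counting error only.

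Neurod1 is a basic helix-loop-helix transcription factor that pairs with E proteins such as Tcf3 and binds E-boxes, short DNA motifs with the ends CA and TG. It is best known for driving neuronal differentiation downstream of the Neurogenins and for its part in endocrine cells of the pancreas and gut. In enteroendocrine cells it activates the gene of the hormone secretin, Sct. It is not a known marker of embryonic stem cells or of early embryoid bodies.

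The dTAG13 library held 91808969 UMIs in its kept cells and the DMSO library 117189816, with medians of 7072.5 and 6014 UMIs per cell. Neurod1 had 4081 UMIs with dTAG13, or 44.5 CPM (counts scaled to a common total of all UMIs, the usual unit for levels), against 409 UMIs and 3.49 CPM with DMSO. With DMSO, 35 of 17878 kept cells had at least 2 Neurod1 UMIs, or 0.196% (0.136% to 0.272%). When each cell was thinned at random to 4000 UMIs, which removes the difference in depth, at least 2 UMIs were found in 288 of 10720 dTAG13 cells, or 2.69% (2.39% to 3.01%), and in 12 of 15908 DMSO cells, or 0.0754% (0.0390% to 0.132%). The higher share with dTAG13 was thus present at equal depth. A cell type certain to lack Neurod1 was not defined, so the share that free RNA gives was not measured. The libraries share 64 barcodes, of which 2 belong to Neurod1 cells of the dTAG13 library and 0 to those of the DMSO library.

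Few transcripts were counted in any one cell. Of the 877 cells, 591 had exactly 2 Neurod1 UMIs, 189 had 3, 63 had 4, 25 had 5 and 9 had 6, the highest count. Just inside the limit, cells with exactly 2 UMIs had a median of 245 Neurod1 CPM and of 8177 UMIs in all. Just outside it, cells with exactly 1 UMI had medians of 132 CPM and 7589 UMIs. The limit cuts a continuous range, and zero-UMI cells may include cells that express the gene. In the thinned cells the variance of the Neurod1 count was 1.24 times its mean with dTAG13 and 1.16 times with DMSO.

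**Figure D1:**
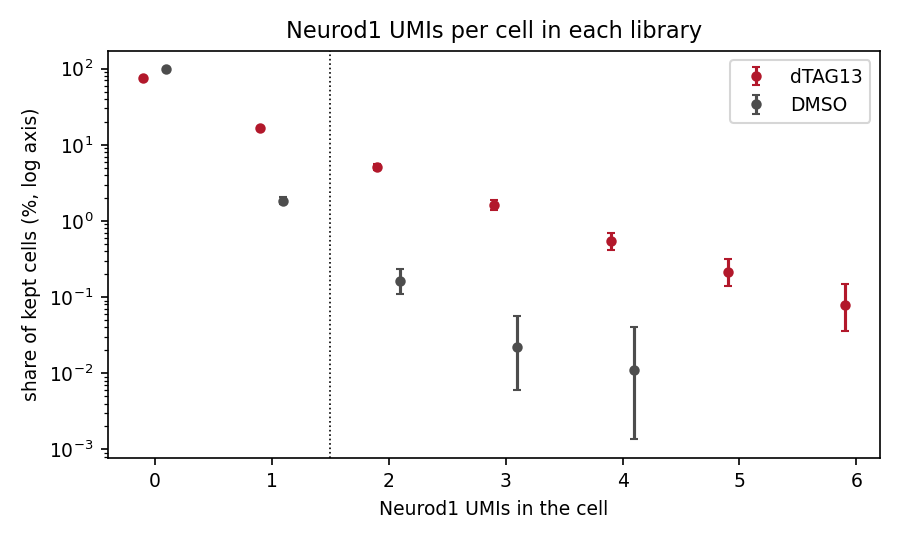
Share of kept cells (vertical axis, %, log scale) by the number of Neurod1 UMIs in the cell, for the dTAG13 and DMSO libraries. Points carry exact 95% intervals for counting error and the dotted line marks the limit of 2 UMIs, past which lie 7.57% of dTAG13 cells and 0.196% of DMSO cells.

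The choice by raw UMIs favours deep cells. Neurod1 cells had a median of 8372 UMIs (lowest 1729, highest 47005) and 2495 genes, against 6871.5 UMIs (643 to 39202) and 2210 genes in zero-UMI cells. Of the Neurod1 cells, 89 (10.1%) were among the 5% of kept cells with the most UMIs, against 367 (4.17%) of the zero-UMI cells. Their median mitochondrial share was 1.85%, against 1.99%. For this reason values were also taken against 1754 zero-UMI cells matched to the members in depth, with a median of 8373 UMIs, and against zero-UMI cells matched in depth and in cell cycle phase, or in depth and in cluster. These are given below as depth-matched, phase-matched and cluster-matched ratios. Ratios are Neurod1 cells over zero-UMI cells, on UMIs summed over all cells of each set.

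By most of their markers, the Neurod1 cells did not stand out as neurons, neural progenitors or endocrine cells, though the endocrine list was higher in sum. Of 18 neuronal genes listed, 6 were measured, meaning at least 5 CPM in 1 or both sets. Summed over the list, neuronal genes had 295 CPM (283 to 307) in Neurod1 cells and 334 CPM (329 to 338) in zero-UMI cells. Most of this was Stmn2, a microtubule regulator of growing axons, at 185 CPM in Neurod1 cells and 215 CPM in zero-UMI cells. Tubb3, neuronal beta-tubulin, had 37.4 CPM against 38.2 CPM. Gap43, a growth cone protein, had 33.7 CPM against 32.7 CPM, and the intermediate filament genes Ina and Nes had 16.7 CPM against 22.0 CPM and 18.3 CPM against 21.0 CPM. No UMI of Dcx, Nhlh1, Neurod2, Neurod6, Neurog1 or Neurog2 was found in any Neurod1 cell, and the progenitor gene Sox1 had 1 UMI. All zero-UMI cells together also held few: 0 of Dcx, Neurod2 and Neurod6, 1 of Neurog2, 2 of Nhlh1, 8 of Neurog1 and 16 of Sox1. Counts this low show no contrast between the sets. Atoh1 had 2 UMIs against 4, a ratio of 4.02 (0.364 to 28.1). Of 12 neural progenitor genes 3 were measured. Of these, 1 was at least 1.5-fold higher and 0 lower, against 1.33% and 1.68% of all measured genes. Against depth-matched cells 0 were higher and 1 lower, and against cluster-matched cells 1 was higher and 1 lower. Summed, the progenitor list had 32.2 CPM (28.5 to 36.3) in Neurod1 cells and 34.0 CPM (32.6 to 35.4) in zero-UMI cells. Of 24 endocrine genes only Sct was measured. Summed, the endocrine list had 169 CPM (160 to 178) in Neurod1 cells and 123 CPM (121 to 126) in zero-UMI cells. Most of this was Sct, at 157 and 112 CPM. Pax4, Rfx6 and Fev had 0 UMIs in Neurod1 cells, against 0, 9 and 5 in zero-UMI cells. Nkx2-2 had 4 UMIs in Neurod1 cells and 14 in zero-UMI cells, a ratio of 2.30 (0.551 to 7.32). Insm1, which was higher, is given below. Chga, the granule protein chromogranin A, stood at 3.95 CPM in Neurod1 cells and 4.96 CPM in zero-UMI cells. Neurog3, the endocrine progenitor factor upstream of Neurod1, had 1 UMI, against 17 in zero-UMI cells.

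Among 8771 measured genes, 117 (1.33%) were at least 1.5-fold higher in Neurod1 cells and 147 (1.68%) at least 1.5-fold lower, Neurod1 left out, and the median log2 ratio was -0.03. Against depth-matched cells the numbers were 168 of 8800 (1.91%) and 188 (2.14%). Against cluster-matched cells they were 75 of 8762 (0.856%) and 107 (1.22%). These shares are the background against which the list counts above and below can be read.

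The pluripotency factors were present at close levels in both sets. Pou5f1 (Oct4) had 506 CPM in Neurod1 cells and 517 CPM in zero-UMI cells, a ratio of 0.98 (0.95 to 1.01). Sox2 had 333 CPM against 334 CPM, a ratio of 0.997 (0.96 to 1.04). Across 11 shared pluripotency genes the median log2 ratio was -0.00, with 0 genes past 1.5-fold in either direction. Tex10 itself stood at 60.3 CPM in Neurod1 cells and 65.2 CPM in zero-UMI cells, a ratio of 0.93 (0.84 to 1.01). The 7 listed genes of its complex, Tex10 among them, had a median log2 ratio of -0.01.

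A few genes known beside Neurod1 in neural and endocrine tissues were higher in the Neurod1 cells. Sct, the secretin gene (ENSMUSG00000038580), had 157 CPM in Neurod1 cells and 112 CPM in zero-UMI cells, a ratio of 1.40 (1.32 to 1.49). From the mean of per-cell CPM the Sct ratio was 1.25, below that interval, and 1 cell held 3.34% of the Sct UMIs of the Neurod1 cells. Gadd45g, a growth arrest and DNA damage protein that is also expressed in newborn neurons, had 52.0 CPM in Neurod1 cells and 24.3 CPM in zero-UMI cells, a ratio of 2.14 (1.92 to 2.38). Hes6, a helix-loop-helix protein that counters Hes1 and is expressed downstream of proneural factors, had 16.3 CPM against 9.80 CPM, a ratio of 1.66 (1.37 to 2.001). The interval lay above 1 for all 3 genes. They were chosen with earlier results of these data known, and Gadd45g is also among the 15 highest ratios. An interval above 1 is therefore no separate support for them.

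The genes were graded with the Neurod1 count, Sct up to 2 UMIs. The steps, here and below, were not matched in depth or phase. From 0 to at least 3 Neurod1 UMIs the median depth rose from 6871.5 to 8753 UMIs. The share of G2M calls on thinned cells rose from 68.6% to 87.5%. At 0, 1, 2 and at least 3 Neurod1 UMIs, Sct stood at 112, 137, 157 and 158 CPM. Gadd45g stood at 24.3, 29.6, 48.9 and 58.0 CPM at the same steps, and Hes6 at 9.80, 12.1, 14.3 and 19.9 CPM. At least 2 Sct UMIs were found in 222 Neurod1 cells, which is 25.3% of them and 11.1% of the cells with that many Sct UMIs, while 17.7% of depth-matched zero-UMI cells had as many. At least 2 Gadd45g UMIs were found in 95 Neurod1 cells, or 10.8% of them and 18.9% of such Gadd45g cells, against 4.85% of depth-matched cells. Most Neurod1 cells therefore had neither gene at that level.

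The matched comparisons treat these genes unequally. Against depth-matched and cluster-matched cells, Gadd45g had ratios of 2.08 and 2.06, and Hes6 had 1.56 and 1.79. Sct had 1.46 and 1.30. Within the 8 clusters that hold at least 50 Neurod1 cells, Gadd45g was above 1 in 8 (1.33 to 3.86), with the interval above 1 in 6. Hes6 was above 1 in 7 of 8, with the interval above 1 in 3. Sct was above 1 in 7 of 8 (0.881 to 2.31), with the interval above 1 in 4. Its largest ratio was in the cluster led by Spic and Ly6a, at 175 CPM in Neurod1 cells and 75.9 CPM in zero-UMI cells. In the cluster led by Krt18 and Krt8, where Sct was highest among these clusters, it had 637 CPM against 585 CPM, a ratio of 1.09 (0.986 to 1.20). Sct is itself among the leading genes of this cluster and of that led by Shisal2b, Nectin4 and Atf3. Its ratios within clusters and against cluster-matched cells are therefore lowered in part by construction, and do not set it apart from Gadd45g.

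Insm1, a zinc-finger factor of endocrine and neuronal progenitors and a known target of Neurod1 in pancreas, was chosen after its values were seen and lies below the level needed to be measured. It had 19 UMIs in Neurod1 cells and 26 in zero-UMI cells, or 2.27 CPM against 0.386 CPM, a ratio of 5.88 (3.08 to 11.05). At 0, 1, 2 and at least 3 Neurod1 UMIs it stood at 0.386, 0.742, 1.29 and 4.12 CPM. Of 54 cells with an Insm1 UMI, 19 were Neurod1 cells, which is 2.17% of the Neurod1 cells, against 0.285% (5 cells) of the depth-matched zero-UMI cells. The counts are small, and the ratio was 7.57 (2.73 to 25.9) against depth-matched, 4.72 (1.97 to 12.5) against phase-matched and 4.67 (1.95 to 12.3) against cluster-matched cells, and 3.74 from the mean of per-cell CPM.

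The 250 bases before the start of Neurod1, Sct and Gadd45g were read from RefSeq (GRCm38.p6), since Neurod1 protein is known to bind E-boxes and Sct and Gadd45g were higher in the cells that carry its mRNA. Capitals mark E-boxes of either of a pair of forms, searched on both strands. The first form is CAGATG. The palindromic form, which reads alike on either strand, is CAGCTG. Matches of the different forms in these windows do not overlap. Neurod1 lies at chr2:79456637-79456886 (minus strand), Sct at chr7:141279134-141279383 (minus strand) and Gadd45g at chr13:51846425-51846674 (plus strand), each written 5′ to 3′ towards the start.
Neurod1: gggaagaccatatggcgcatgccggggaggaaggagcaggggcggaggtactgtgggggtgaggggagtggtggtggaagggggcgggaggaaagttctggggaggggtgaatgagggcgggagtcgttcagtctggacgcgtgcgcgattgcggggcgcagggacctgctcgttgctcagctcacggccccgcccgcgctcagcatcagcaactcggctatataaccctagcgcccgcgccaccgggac
Sct: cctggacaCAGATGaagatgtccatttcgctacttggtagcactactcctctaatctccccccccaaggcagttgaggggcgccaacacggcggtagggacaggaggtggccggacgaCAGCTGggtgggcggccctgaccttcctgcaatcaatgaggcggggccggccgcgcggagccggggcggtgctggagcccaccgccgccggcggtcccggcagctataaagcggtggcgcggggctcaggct
Gadd45g: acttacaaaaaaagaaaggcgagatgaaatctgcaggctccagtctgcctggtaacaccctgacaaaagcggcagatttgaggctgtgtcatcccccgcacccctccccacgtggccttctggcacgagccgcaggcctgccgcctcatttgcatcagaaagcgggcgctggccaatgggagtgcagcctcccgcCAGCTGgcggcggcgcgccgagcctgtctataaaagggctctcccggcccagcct
Neurod1 held 0 matches in this window. Sct held the first form from 242 to 237 bases before the start and the palindromic form from 132 to 127 bases before it. Gadd45g held the palindromic form from 55 to 50 bases before its start. Hes6, searched in the same way and not shown, held the palindromic form in each listed promoter, from 171 to 166 and from 150 to 145 bases before the start. Insm1 had no promoter entry. Of 32851 promoters of this length, 14.4% held the first form, 13.0% the palindromic form and 25.5% either. A match in this window describes the letters and does not show binding.

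Among the partners and inhibitors of Neurod1, most differences were below 1.5-fold. Of 23 proneural helix-loop-helix factors and partners, 8 were measured. Of these, 1 was at least 1.5-fold higher and 1 lower, against 1.33% and 1.68% of all measured genes. Tcf3, an E protein that pairs with Neurod1, had 16.0 CPM in Neurod1 cells and 18.4 CPM in zero-UMI cells, a ratio of 0.87 (0.72 to 1.04). Id1, which binds E proteins and keeps them from DNA, had 531 CPM against 471 CPM, a ratio of 1.13 (1.09 to 1.16). From the mean of per-cell CPM the Id1 ratio was 1.06, below that interval, and against cluster-matched cells it was 1.26 (1.21 to 1.30). In the Notch pathway, which restrains neurogenesis, 6 of 7 measured genes were above 1 and 1 was past 1.5-fold, with a median log2 ratio of 0.07. The ligand Jag2 had a ratio of 1.46, which was 1.07 (0.847 to 1.35) against cluster-matched cells. Dll1, another ligand and below the level needed to be measured, had 11 UMIs against 39, a ratio of 2.27 (1.05 to 4.52). Against depth-matched cells its ratio was 2.19 (0.845 to 5.75). Hes1, the Notch target that represses proneural genes, had 17.6 CPM in Neurod1 cells and 22.7 CPM in zero-UMI cells, a ratio of 0.77 (0.65 to 0.92). Against cluster-matched cells the Hes1 ratio was 0.845 (0.692 to 1.03), and with DMSO it was 0.988 (0.397 to 2.04) on 7 UMIs.

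**Figure D2:**
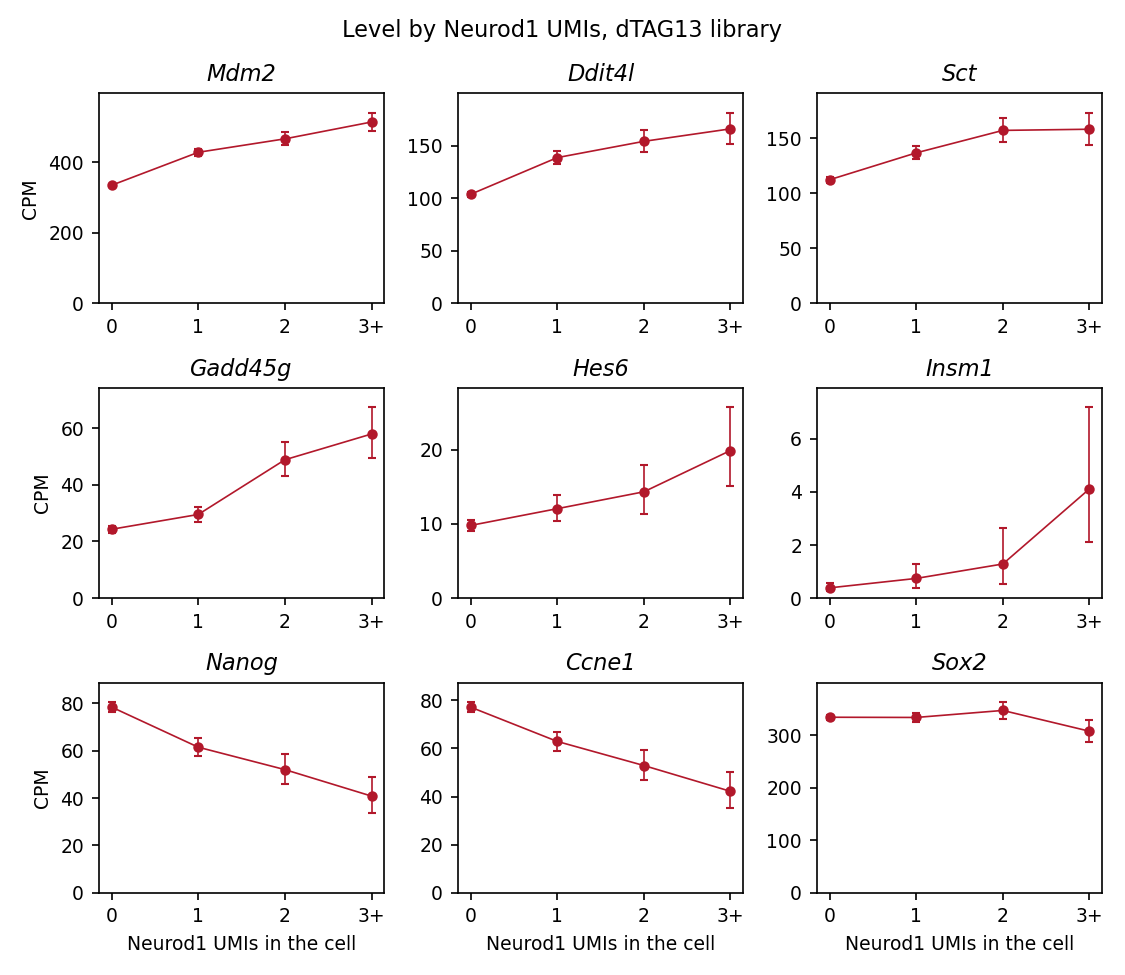
Level of 9 genes (CPM, vertical axis from 0 in each panel) in dTAG13 cells with 0, 1, 2 and at least 3 Neurod1 UMIs (horizontal axis), with exact 95% Poisson intervals. Mdm2 runs up to 513 CPM, Gadd45g to 58.0 CPM and Insm1 to 4.12 CPM at 3 or more UMIs, Nanog and Ccne1 run down to 40.8 and 42.2 CPM, and Sox2 stays between 307 and 347 CPM.

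Most p53 targets were somewhat higher in Neurod1 cells. Of 41 measured targets, 36 were above 1 in Neurod1 cells, against 43.3% of all measured genes, and the median log2 ratio was 0.24. Past 1.5-fold, 3 were higher and 0 lower. Mdm2, the ubiquitin ligase that restrains p53, had 482 CPM in Neurod1 cells and 334 CPM in zero-UMI cells, a ratio of 1.44 (1.39 to 1.49). Ddit4l, an inhibitor of mTORC1, had 158 CPM against 104 CPM, a ratio of 1.53 (1.44 to 1.62). Cd80, a co-stimulatory ligand, had 17.8 CPM against 9.80 CPM, a ratio of 1.82 (1.51 to 2.18). Cdkn1a, the cell cycle inhibitor p21, had 277 CPM against 222 CPM, a ratio of 1.25 (1.20 to 1.31). Trp53 itself had 465 CPM in Neurod1 cells and 452 CPM in zero-UMI cells, a ratio of 1.03.

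The difference in p53 targets was graded with the Neurod1 count, in steps not matched in depth or phase. For all Neurod1 cells together it held in matched cells. Mdm2 stood at 334, 427, 466 and 513 CPM at 0, 1, 2 and at least 3 Neurod1 UMIs, and Ddit4l at 104, 139, 154 and 166 CPM. Taken as a list, the targets had a median log2 ratio of 0.25 against depth-matched cells and 0.15 against cluster-matched cells, with Mdm2 at 1.31 and Ddit4l at 1.38 in the cluster-matched set. Within the 8 clusters, Mdm2 was above 1 in 8 (1.12 to 1.47), with the interval above 1 in 8. Ddit4l was above 1 in 8, with the interval above 1 in 5. Per cell, at 4000 UMIs, the listed targets summed to a median of 27 UMIs in Neurod1 cells (quartiles 23 and 32) and 23 UMIs in zero-UMI cells (19 and 28). The ranges overlapped across nearly their whole length.

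The 35 Neurod1 cells of the DMSO library differed from DMSO cells with 0 Neurod1 UMIs in the same targets and in Sct. These sets were not matched in depth or phase. Their median depths were 7119 and 6003 UMIs, and G2M calls on thinned cells made up 90.9% and 74.9%. Mdm2 had 222 CPM (56 UMIs) in these cells and 42.8 CPM in the 17512 DMSO cells with 0 Neurod1 UMIs, a ratio of 5.18 (3.90 to 6.73). Ddit4l had 91.0 CPM (23 UMIs) against 17.1 CPM, a ratio of 5.32 (3.37 to 8.01). Sct had 87.1 CPM (22 UMIs) against 11.8 CPM, a ratio of 7.39 (4.62 to 11.2). Of 40 measured p53 targets, 30 were at least 1.5-fold higher and 4 lower, against 22.0% and 19.9% of all 8817 measured genes in this small set, and the median log2 ratio was 1.16. Thinned p53 target UMIs per cell had medians of 21 in 33 DMSO Neurod1 cells and 12 in DMSO zero-UMI cells. The median of the DMSO Neurod1 cells lay below that of the dTAG13 zero-UMI cells, at 23 UMIs. Gadd45g rested on 7 UMIs in the DMSO Neurod1 cells.

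**Figure D3:**
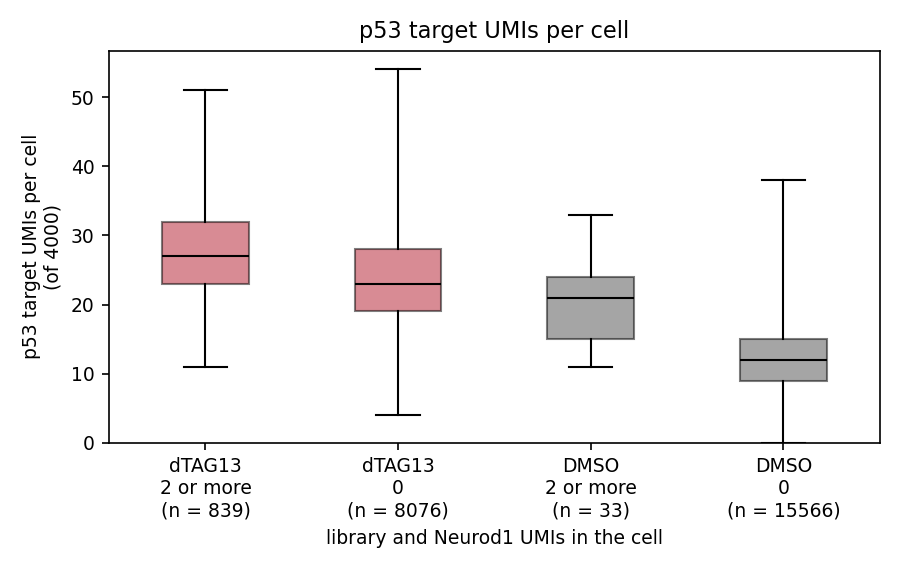
p53 target UMIs per cell, each cell thinned to 4000 UMIs (vertical axis), for cells with 2 or more and with 0 Neurod1 UMIs in the dTAG13 and DMSO libraries. Boxes show the quartiles and median and whiskers the full range; medians are 27, 23, 21 and 12 UMIs from left to right.

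Cell cycle genes differed as well. Of 51 measured G2 and M phase genes, 48 were above 1 in Neurod1 cells and 0 were past 1.5-fold, with a median log2 ratio of 0.23. Hmmr, a spindle assembly protein, had 337 CPM in Neurod1 cells and 232 CPM in zero-UMI cells, a ratio of 1.45 (1.40 to 1.51). Ube2c, the ubiquitin-conjugating enzyme of the anaphase-promoting complex, had 910 CPM against 647 CPM, a ratio of 1.41. As a list these genes had a median log2 ratio of 0.16 against depth-matched, 0.12 against phase-matched and 0.04 against cluster-matched cells, where Hmmr had a ratio of 1.16 and Mki67, a proliferation marker, 0.98. Against cluster-matched cells 35 of the 51 genes were still above 1. Within the 8 clusters Hmmr was above 1 in 7 (0.737 to 1.89), with the interval above 1 in 5, so a difference remained for this gene. Ube2c and Hmmr are themselves among the leading genes of the cluster led by Neb. Matching by cluster therefore lowers the ratios of such genes in part by construction, and the smaller values there are no separate result.

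S phase genes and the cyclin E genes were mostly lower in Neurod1 cells. Of 42 measured S phase genes, 6 were above 1, and 0 were at least 1.5-fold higher and 3 lower, with a median log2 ratio of -0.12. Ccne1, a cyclin E that starts S phase, had 49.2 CPM in Neurod1 cells and 77.2 CPM in zero-UMI cells, a ratio of 0.64 (0.57 to 0.71). Its levels at 0, 1, 2 and at least 3 Neurod1 UMIs were 77.2, 62.9, 52.9 and 42.2 CPM. Ccne2, the other cyclin E, had 5.50 CPM against 11.4 CPM, a ratio of 0.48 (0.35 to 0.65). Gins2, a subunit of the replicative helicase, had a ratio of 0.66 and Cdc6, a replication licensing factor, 0.70. Against cluster-matched cells Ccne1 had a ratio of 0.76 (0.67 to 0.85) and Ccne2, itself a leading gene of a cluster, 0.60 (0.42 to 0.84). The S phase list then had a median log2 ratio of -0.068. Within the 8 clusters Ccne1 was below 1 in 8 (0.645 to 0.959), with the interval below 1 in only 1.

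In phase calls on thinned cells, 690 of 839 Neurod1 cells were called G2M, or 82.2% (79.5% to 84.8%), against 68.6% of 8076 zero-UMI cells. G1 calls made up 9.89% against 16.2%, and S calls 7.87% against 15.2%. The phases differ in depth, with median UMIs of 5412.5 in G1, 6638.5 in S and 7928.5 in G2M calls. Summed over all cells of a phase, Neurod1 stood at 45.1 CPM in G1, 32.5 CPM in S and 45.5 CPM in G2M calls. At 4000 UMIs per cell the share with at least 2 Neurod1 UMIs was 2.52% (1.82% to 3.39%) in G1, 2.04% (1.39% to 2.89%) in S and 2.85% (2.49% to 3.25%) in G2M calls, and the intervals overlap. At equal depth the phases thus differed less in their share of Neurod1 cells than in the raw counts, where, over the same cells, it was 4.98% in G1, 4.35% in S and 9.15% in G2M calls.

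Naive pluripotency genes were mostly lower. Of 19 measured, 2 were above 1, 0 were at least 1.5-fold higher and 2 lower, with a median log2 ratio of -0.19. The median was -0.16 against depth-matched cells (6 of 19 above 1), -0.075 against phase-matched cells (6 above 1) and -0.12 against cluster-matched cells (5 above 1). Nanog had 48.1 CPM in Neurod1 cells and 78.4 CPM in zero-UMI cells, a ratio of 0.61 (0.55 to 0.68). It stood at 78.4, 61.5, 52.0 and 40.8 CPM at 0, 1, 2 and at least 3 Neurod1 UMIs, and was below 1 in 8 of 8 clusters (0.281 to 0.958), with the interval below 1 in 3. Tcl1, a coactivator of Akt, had 8.02 CPM against 13.6 CPM, a ratio of 0.59. Tfcp2l1 and Klf4, both factors of the naive network, had ratios of 0.68 and 0.78. The summed level of the list differed little, at 8252 CPM in Neurod1 cells and 8430 CPM in zero-UMI cells. With DMSO, Nanog had a ratio of 0.963 (0.596 to 1.47).

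Formative genes, which mark the next stage of pluripotency, were mixed. Of 11 measured, 6 were above 1, and the median log2 ratio was 0.06, with 2 genes at least 1.5-fold higher. Otx2, a homeobox factor of the formative state, had 13.4 CPM in Neurod1 cells and 6.93 CPM in zero-UMI cells, a ratio of 1.93 (1.56 to 2.38). Dnmt3a, a de novo DNA methyltransferase, had a ratio of 1.28 (1.09 to 1.49). With DMSO these genes rested on 1 and 2 UMIs.

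Trophoblast genes had the lowest median of the lists with at least 3 measured genes, at -0.45 on the log2 scale, with 1 of 9 at least 1.5-fold higher and 3 lower. Rhox9 and Rhox6, homeobox genes of placenta and germ cells, had 4.91 CPM in Neurod1 cells against 19.4 CPM, and 6.82 CPM against 19.96 CPM. Krt18, a simple epithelial keratin, had 22.7 CPM against 36.2 CPM, with 17.9% of its Neurod1-cell UMIs from 1 cell. Krt7, another keratin, was higher, at 11.8 CPM against 7.49 CPM. At least 2 UMIs of Krt8 and Krt18 together were found in 5.82% of Neurod1 cells and 8.21% of depth-matched cells.

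**Figure D4:**
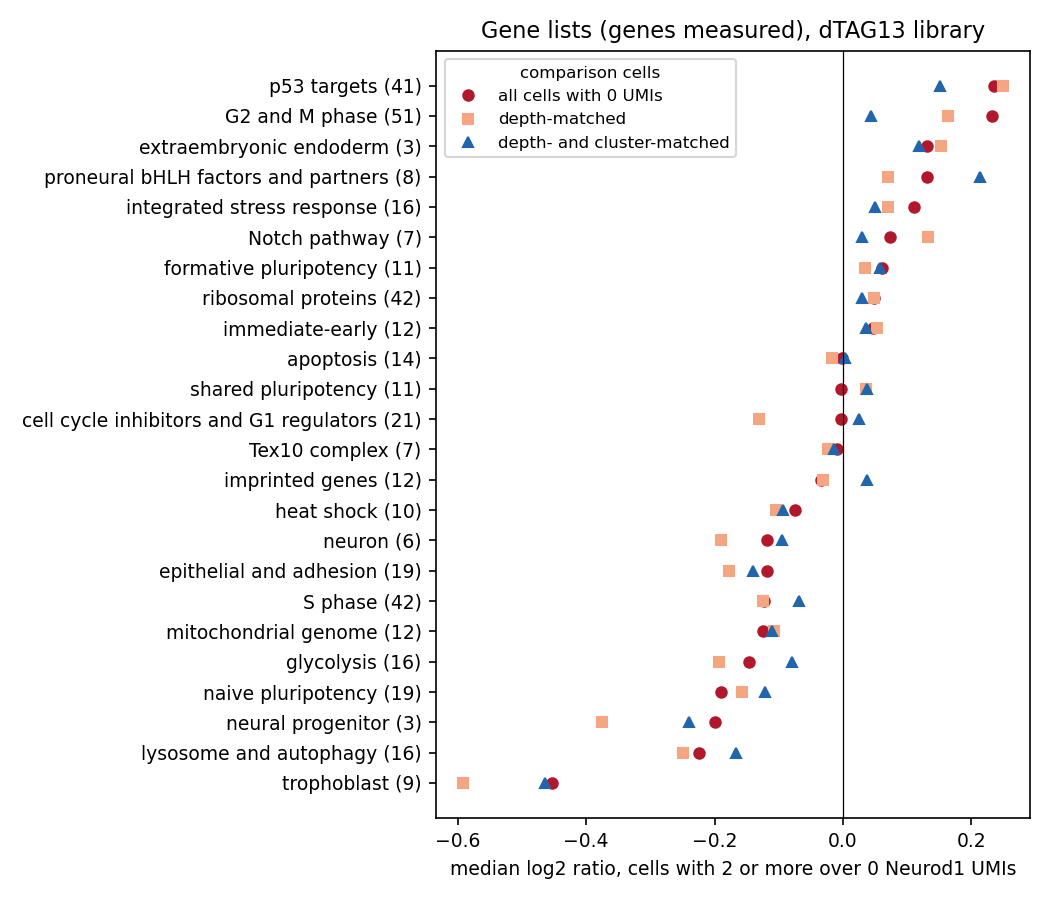
Median log2 ratio of each gene list (horizontal axis), Neurod1 cells over zero-UMI cells of the dTAG13 library, with the number of genes measured. Symbols stand for all, depth-matched and depth- and cluster-matched zero-UMI cells; p53 targets lie at 0.24, 0.25 and 0.15 and G2 and M phase genes at 0.23, 0.16 and 0.04.

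The stress, apoptosis, epithelial, imprinted and G1 regulator lists had medians between -0.12 and 0.11. Integrated stress response genes had a median log2 ratio of 0.11 over 16 genes, with 1 higher, Atf3 (32.4 CPM in Neurod1 cells, 21.4 CPM in zero-UMI cells). Immediate-early genes had 0.05 over 12, apoptosis genes -0.00 over 14, heat shock genes -0.07 over 10, epithelial and adhesion genes -0.12 over 19 and imprinted genes -0.03 over 12. Only 1 of the 10 heat shock genes was above 1, and their sum was 17174 CPM (17085 to 17263) against 18199 CPM (18166 to 18231). Against depth-matched cells the epithelial median was -0.18, with 4 of 19 genes at least 1.5-fold lower, against 2.14% of all measured genes. The cell cycle inhibitors and G1 regulators had -0.00 over 21, with 2 higher, Gadd45g and Rbl2, and 3 lower. Rbl2, a pocket protein that holds E2F targets silent, had 12.0 CPM in Neurod1 cells and 7.82 CPM in zero-UMI cells. The 2-cell-like list rested on 2 measured genes, with a median of -1.19. They were Eif1a, a translation initiation factor, at 206 CPM in Neurod1 cells and 235 CPM in zero-UMI cells, and Zscan4e, of a family expressed in the 2-cell embryo, at 1.20 CPM (10 UMIs) against 5.47 CPM. Against depth-matched cells only Eif1a was measured, at a ratio of 0.91.

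Neurod1 cells were found in all 12 clusters of the dTAG13 cells, which were drawn without Neurod1 and are called here by their leading genes. The raw share was 17.2% (151 of 877 cells, by coincidence the number of all Neurod1 cells) in the cluster led by Neb, Ube2c and Cenpf and 16.8% (155 of 924) in that led by Shisal2b, Nectin4 and Atf3. It was 10.5% (126 of 1195) in a histone cluster led by H2ac8 and H1f1 and between 3.85% and 6.41% in the other clusters. At 4000 UMIs per cell, the share was 5.25% (3.88% to 6.92%) in the Shisal2b and Nectin4 cluster, 4.95% (3.57% to 6.65%) in the Neb and Ube2c cluster and 4.03% (2.98% to 5.32%) in the H2ac8 and H1f1 cluster. It was lowest in the cluster led by Sfrp1 and Plac8, at 0.484% (0.157% to 1.12%), and in that led by Rhox9, at 0.651% (0.0790% to 2.33%). Neurod1 levels ran from 21.1 CPM in these clusters to 81.0 CPM in the Neb and Ube2c cluster. That cluster and the Shisal2b and Nectin4 cluster are both over 99% G2M calls (99.6% and 99.2%), while the Spic and Ly6a cluster, with 62.7% G1 calls, had 46.3 CPM.

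**Figure D5:**
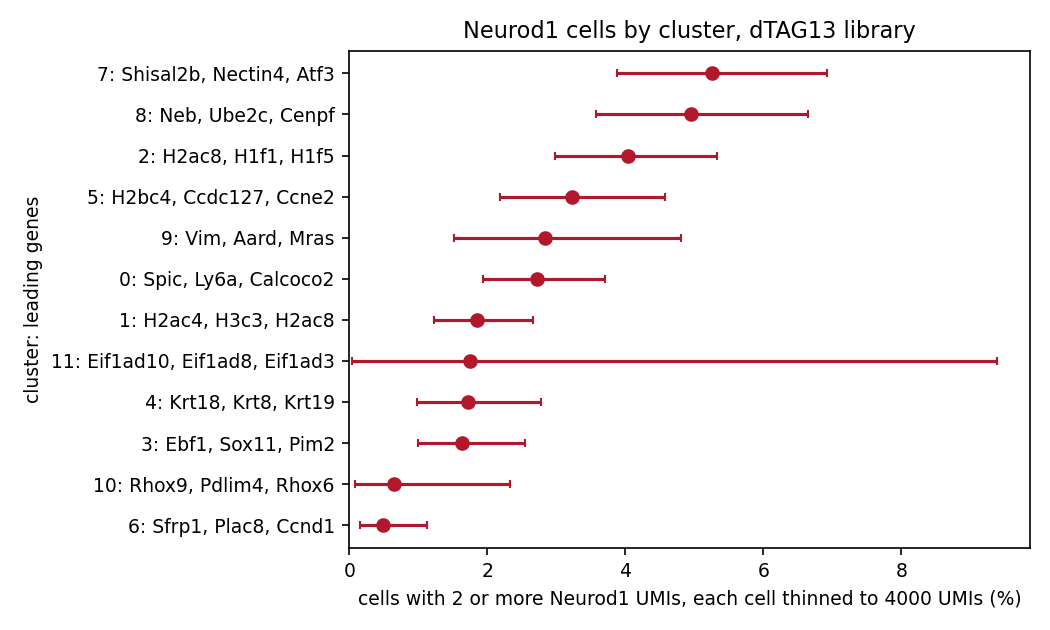
Share of cells with at least 2 Neurod1 UMIs at 4000 UMIs per cell (horizontal axis, %), by cluster of dTAG13 cells and its leading genes, with exact 95% intervals. Shares run from 0.484% in the Sfrp1 and Plac8 cluster to 5.25% in the Shisal2b and Nectin4 cluster.

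Some Neurod1 cells also held Nectin4 or Atf3. At least 2 UMIs of Nectin4, a cell adhesion protein, were found in 67 Neurod1 cells, or 7.64% of them and 11.4% of the Nectin4 cells, against 5.36% of depth-matched cells. At least 2 UMIs of Atf3, a stress-induced transcription factor, were found in 54, or 6.16% of them and 12.3% of the Atf3 cells, against 3.36% of depth-matched cells. Against cluster-matched cells Nectin4 had a ratio of 1.1001 and Atf3 one of 1.33. Both are leading genes of a cluster, so matching by cluster lowers their ratios in part by construction.

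Genes with the largest ratios outside the lists belonged to several functions. Ms4a10, a membrane protein of the MS4A family, had 33.4 CPM in Neurod1 cells and 15.7 CPM in zero-UMI cells, a ratio of 2.13 (1.86 to 2.43). Its DMSO ratio was 12.8 (4.63 to 28.2), on 6 UMIs. Cemip2, a transmembrane hyaluronidase, had 37.0 CPM against 20.1 CPM, and Fgfbp1, a carrier of fibroblast growth factors, 38.5 CPM against 21.0 CPM. With DMSO, Cemip2 lay on the other side of 1, at 0.222 (0.00563 to 1.24) on 1 UMI, and Fgfbp1 had 2.43 (0.787 to 5.69) on 5 UMIs. Against cluster-matched cells the dTAG13 ratios of Ms4a10, Cemip2 and Fgfbp1 were 1.65, 1.77 and 1.82. Aass, an enzyme of lysine breakdown, had a ratio of 1.64. At the low end, S100a13, a calcium-binding protein, had 11.1 CPM in Neurod1 cells and 30.2 CPM in zero-UMI cells, a ratio of 0.37 (0.30 to 0.45). Cotl1, an actin-binding protein, had a ratio of 0.49, and Trh, the gene of thyrotropin-releasing hormone, 0.61.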

How the data were processed

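The deposited matrices hold UMI counts per gene and barcode, as whole numbers. Per the file headers, Cell Ranger 8.0.1 made them. The submitters' processing notes also list R 4.3.2, Seurat 5.0.1 and the build mm10 without saying what each was used for. Any barcode filter ahead of deposit was not given in the sources used here, and the barcode with the fewest UMIs had 502 in the dTAG13 matrix and 501 in the DMSO matrix. Symbols were taken from the files, and the counts of the 26 symbols with 2 identifiers were summed.

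Counts were summed over the cells of each set and given as CPM, whose intervals are exact Poisson. Intervals of ratios are conditional binomial and those of shares Clopper-Pearson, all exact, at 95% and for counting error only. A gene was measured at 5 CPM or more in 1 or both sets. Thinning to 4000 UMIs left out shallower cells, which left 839 Neurod1 cells and 8076 zero-UMI cells. Phases were called from S and G2 and M genes, and clusters drawn with 2000 variable genes, 30 components, 15 neighbours and resolution 1, without Neurod1 (scanpy 1.11.5, leidenalg 0.10.2, scipy 1.17.1). Up to 2 matched zero-UMI cells were taken per member. No doublet caller was run and no doublet was removed; 1 alternative leaves out the 5% of cells with the most UMIs. The scripts were checked on simulated data.

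The members, lists and alternatives were chosen with earlier results of these data known. Genes are named by a rule: Neurod1 and Sct; the 15 highest and 15 lowest ratios among genes with at least 20 CPM and a UMI in at least 5% of cells, without predicted, ribosomal protein and mitochondrial genes; and up to 4 genes per list with the largest ratios at 10 CPM or more. Other genes are described as markers, partners or values chosen after being seen. With 1 library per group, no test was made.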

Additional observations from a re-analysis of the deposited data

Results flagged for a closer look

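Gdf3, a TGF-beta family ligand of pluripotent cells, lay on opposite sides of 1 in the libraries. With dTAG13 it had 99.1 CPM in Neurod1 cells and 91.3 CPM in zero-UMI cells, a ratio of 1.09 (1.01 to 1.17). With DMSO it had 79.1 CPM (20 UMIs) in Neurod1 cells and 128 CPM in zero-UMI cells, a ratio of 0.620 (0.379 to 0.959). The difference between the ratios was not tested. Against depth-matched cells the dTAG13 ratio was 1.05 (0.962 to 1.14).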

How the results depend on the processing

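No paired analysis was possible because each group is 1 library. The share of Neurod1 cells among kept dTAG13 cells was 24.0% with at least 1 UMI, 2.47% with at least 3 and 2.69% at 4000 UMIs per cell. The number of genes at least 1.5-fold higher was 75 against cluster-matched cells, 259 for members with at least 3 UMIs, 11 for cells with exactly 1 UMI, 2249 with no minimum CPM and 27 at a minimum of 20 CPM. The number lower was 452 for members with at least 3 UMIs, 28 for cells with exactly 1, 1524 with no minimum and 26 at 20 CPM. The median log2 ratio of G2 and M phase genes was 0.12 against phase-matched cells, 0.044 against cluster-matched cells and 0.087 for cells with exactly 1 UMI. The neural progenitor median, -0.20 over 3 genes, changed sign to 0.083 for cells with exactly 1 UMI, 0.14 without the 5% of cells with the most UMIs and 0.11 with the mean of per-cell CPM. The extraembryonic endoderm median, 0.13 over 3 genes, was -0.0050 with no minimum CPM. The cause of these differences was not tested, except that fewer or more genes pass another minimum. Of 118 named genes, 107 moved by less than their counting interval against depth-matched cells and 80 against cluster-matched cells, and none past 1.5-fold changed direction. Nearer to 1, the side changed for Gap43 (1.03), at 0.889 depth-matched, 0.875 phase-matched, 0.958 without the deepest cells and 0.960 as a per-cell mean, for Tubb3 (0.981), at 1.02 depth-matched, for Tcf15 (0.914), at 1.04 cluster-matched, and, for cells with exactly 1 UMI, for Nes, Zfp281, Tdgf1, Gdf3, Tagln and Bak1. The depth limits genes of a few UMIs, Insm1 and the 35 DMSO cells first.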

Other observations

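Xist, the RNA that coats the inactive X chromosome, had 29.0 CPM in Neurod1 cells and 11.3 CPM in zero-UMI cells, a ratio of 2.55 (2.20 to 2.95), although the line is male. It stood at 11.3, 12.3, 34.2 and 19.2 CPM at 0, 1, 2 and at least 3 Neurod1 UMIs, so it did not run with the Neurod1 count. At least 2 Xist UMIs were found in 45 Neurod1 cells, or 5.13% of them, against 1.65% of depth-matched zero-UMI cells, and 1 cell held 7.44% of the Xist UMIs of the Neurod1 cells.

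Metabolic lists were a little lower in Neurod1 cells. Of 16 measured lysosome and autophagy genes 1 was above 1, with a median log2 ratio of -0.22. Hexa, a lysosomal hexosaminidase subunit, had a ratio of 0.59. Of 16 glycolysis genes 1 was above 1 and 2 were at least 1.5-fold lower, with a median of -0.15. Hk2 and Hk1, the hexokinases that start glycolysis, had ratios of 0.65 and 0.67. All 12 measured mitochondrially encoded genes were below 1, with a median of -0.12, and 39 of 42 ribosomal protein genes were above 1, with a median of 0.05.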
